A study of Homo sapiens with 6 samples.

Results

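A set of 6 metallothionein genes (MT1E, MT1F, MT1G, MT1M, MT1X and MT2A), the zinc-sensing transcription factor gene MTF1 and the zinc exporter gene SLC30A1 were followed in MDA-MB-231 cells given PDBAG1. They were taken by gene symbol from the deposited mRNA tables, where these 8 genes stood among 17631. MDA-MB-231 is an established human cell line of triple-negative breast cancer, and PDBAG1 is a peptide derived from the enzyme GPD1 and joined to a cell-penetrating sequence. The 6 libraries formed 2 groups of 3, which differed in treatment: vehicle, or PDBAG1 at 30 µM for 24 h. The labels name the line for all libraries, kept in DMEM with serum and antibiotics, but also give breast cancer tissue as the source. Taken as the line, the values describe 1 cell line at 1 dose and 1 time. The labels number the replicates and do not say that they were separate cultures, so the p-values below measure the spread between these libraries, which may be technical.

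Metallothioneins are small cysteine-rich proteins that bind zinc, copper and other heavy metals and buffer the free zinc of the cell. When free zinc rises, the zinc-finger factor MTF1 binds metal response elements (MREs) upstream of metallothionein genes and of SLC30A1, whose product, ZnT1, carries zinc out through the plasma membrane. Metallothionein genes are also known to respond to glucocorticoids, oxidants and low oxygen.

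The metallothionein members lie in 1 cluster on chromosome 16 (GRCh38, GENCODE release 44), within 95.1 kb that hold 10 metallothionein genes of the files. MT2A lies at 56608584 to 56609497, MT1E at 56625475 to 56627112, MT1M at 56632659 to 56633981, MT1F at 56657731 to 56660698 and MT1X at 56682470 to 56684196, all on the plus strand. MT1G, at 56666730 to 56668065, lies on the minus strand. Their reference transcripts were 398 to 425 bases long with 3 exons, other than that of MT1E, which had 746 bases and 2 exons. MTF1 (chromosome 1, 37809574 to 37859592) and SLC30A1 (chromosome 1, 211571568 to 211579161) lie on the minus strand.

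The 250 bases before the transcription start were read from RefSeq (GRCh38.p14) for the 4 members that matched, MT2A, MT1X, SLC30A1 and MTF1, and not for MT1E, MT1F, MT1G and MT1M. MT2A and MT1X are printed because the first was the most abundant member and the second gave the clearest difference between treatments, and SLC30A1 because it is the MTF1 target outside the family. Capitals mark the MRE core (TGCACNC or TGCGCNC, on either strand). The windows are chr16:56608334-56608583 for MT2A and chr16:56682220-56682469 for MT1X, both on the plus strand, and chr1:211579162-211579411 on the minus strand for SLC30A1.
MT2A: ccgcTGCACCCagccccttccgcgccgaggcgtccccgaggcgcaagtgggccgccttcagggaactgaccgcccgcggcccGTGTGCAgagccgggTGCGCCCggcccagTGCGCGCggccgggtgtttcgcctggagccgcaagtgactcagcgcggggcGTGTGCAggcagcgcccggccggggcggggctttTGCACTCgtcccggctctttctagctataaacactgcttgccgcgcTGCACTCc
MT1X: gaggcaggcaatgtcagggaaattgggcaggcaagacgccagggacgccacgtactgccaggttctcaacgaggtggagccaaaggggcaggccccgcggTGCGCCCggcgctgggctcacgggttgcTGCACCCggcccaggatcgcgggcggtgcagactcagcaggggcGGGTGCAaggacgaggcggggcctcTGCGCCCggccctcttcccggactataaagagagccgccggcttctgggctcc
SLC30A1: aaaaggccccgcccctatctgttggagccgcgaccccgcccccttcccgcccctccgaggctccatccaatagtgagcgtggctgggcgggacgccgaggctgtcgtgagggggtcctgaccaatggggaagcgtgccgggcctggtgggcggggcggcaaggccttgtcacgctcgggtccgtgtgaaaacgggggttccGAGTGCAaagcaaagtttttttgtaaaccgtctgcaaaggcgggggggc

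The core was found 7 times before MT2A, 4 times before MT1X, 1 time before SLC30A1 and not before MTF1. Of 34796 RefSeq promoters cut to the same length, 24.8% held at least 1 such match, 0.368% held 4 or more and 0.0316% held 7 or more. The matches nearest the start ran from 8 to 2 bases before it in MT2A, from 53 to 47 in MT1X and from 49 to 43 in SLC30A1. The core of the hypoxia response element (ACGTG or GCGTG) was found 1 time before MT2A, where it overlapped an MRE match, 1 time before MT1X, 3 times before SLC30A1 and 2 times before MTF1, and 43.1% of all promoters held at least 1. An AP-1 site (TGANTCA) was found before MT2A, 104 to 98 bases from the start, and not before the other 3, against 6.59% of all promoters. These are matches of letters and no binding was measured.

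**Figure D1:**
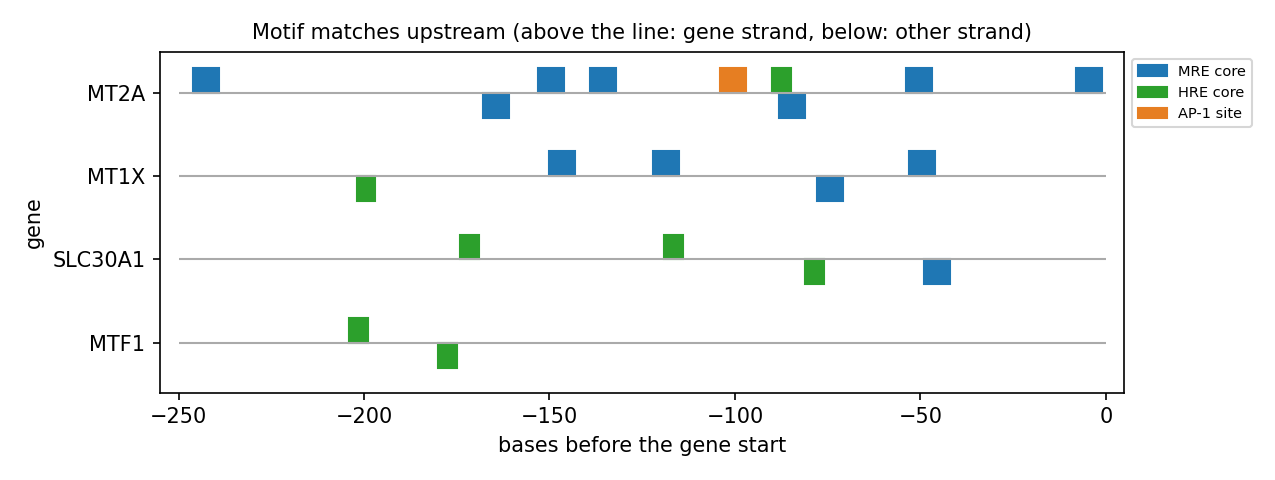
Map of the motif matches in the 250 bases before the transcription start, with the distance from the start in bases on the horizontal axis and 1 row per gene. MT2A carried 7 MRE core matches spread over the window, MT1X carried 4 within the 150 bases nearest the start, and SLC30A1 carried 1.

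Values are given as TPM, a transcript abundance that is scaled to the length of each transcript and to the same total in every library, so that they can be compared between genes. They keep no sequencing depth, so no counting error can be given. They are shares of the mRNA of a library, in which fewer cells expressing a gene and less of its RNA per cell cannot be told apart. Between 12392 and 12611 genes reached 1 TPM in each library, and no pair of libraries held identical values. Of the markers of MDA-MB-231 looked up, all 5 were present, with a summed level of 5445 to 5626 TPM with vehicle and 7136 to 7244 TPM with PDBAG1, most of it VIM. They did not move alike. At an adjusted p under 0.05 (limma), VIM (mean 4270 to 5877 TPM) and CD44 (321 to 484) were higher with PDBAG1. AXL (384 to 320) and KRT18 (518 to 447) were lower, and EGFR (69.6 to 75.0) did not pass. Of the 6 hormone receptor and luminal markers, PGR, FOXA1 and CDH1 were below 1 TPM in every library, whereas ESR1 (2.26 TPM with vehicle, 2.61 with PDBAG1), GATA3 (3.59 and 3.23) and ERBB2 (24.7 and 24.5) were detected. Of 10 markers of other breast tissue cells, 8 were in the tables, summing to 9.14 to 9.70 TPM with vehicle and 15.5 to 17.3 TPM with PDBAG1. None was at 0 in every library, but VWF, ADIPOQ, PLIN1 and LUM stayed below 1 TPM. PECAM1 (from a mean of 3.94 to 8.64 TPM, adjusted p = 2.2e-06) and CSF1R (from 1.63 to 3.21 TPM, adjusted p = 8.1e-04) rose. ACTA2 (from 2.21 to 2.58 TPM, limma adjusted p = 0.351) overlapped between the treatments and did not pass. PTPRC overlapped as well and did not enter the test. The part of these markers in the results below was not tested.

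With PDBAG1, MT1X, MT1G and MT1F were called higher, whereas MT2A, MT1E, MTF1 and SLC30A1 did not pass the test. The 3 calls were not alike. The MT1F groups overlapped and its call was lost in 9 of 13 alternative settings, and MT1G was low, with a vehicle mean of 1.33 TPM. In all, 3 of the 7 members tested were higher at an adjusted p under 0.05 (limma, Benjamini-Hochberg over 12582 genes) and 0 were lower. Over all genes tested, 37.6% passed in either direction, 21.7% higher and 15.9% lower, so the number of members called was close to the background. With a fold change of at least 1.5 as well, MT1X and MT1G remained, against 3.34% of all genes tested. MT1G met the filter of 1 TPM in 3 libraries only with PDBAG1 libraries counted, where it was higher. Its part in these counts is therefore not independent of the filter. The higher calls made up 57.8% of all calls, and 46.7% after quantile normalization. The median log2 fold change was 0.001 over the tested members and 0.03 over all genes tested.

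The order of the levels with vehicle was MT2A, MT1E, MT1X, SLC30A1, MTF1, MT1F, MT1G and MT1M. The ranges of the first 4 did not overlap those of their neighbours. MTF1 overlapped MT1F, and MT1G overlapped MT1M. With PDBAG1, MT1F moved above MTF1 in the order of means, with overlapping ranges, and the gap between MT1E and MT1X narrowed to 1126.8 TPM in the lowest MT1E library against 1102 TPM in the highest MT1X library.

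**Figure D2:**
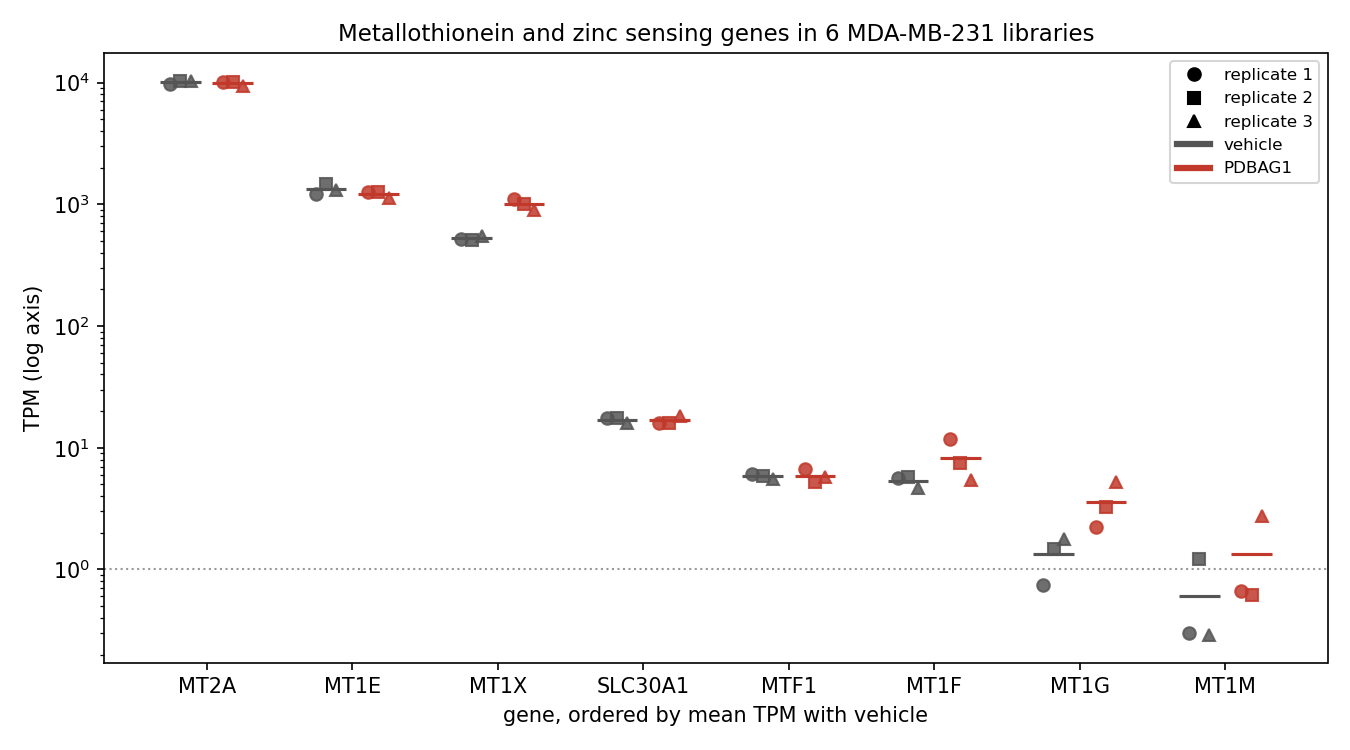
Level of each member in the 6 libraries in TPM on a log axis, with vehicle and PDBAG1 side by side and the mean of each group as a line. The MT1X and MT1G points with PDBAG1 lie above all vehicle points, whereas those of the other 6 members overlap.

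MT2A, the main metallothionein of most human cells, stood at 9678, 10311 and 10352 TPM in the vehicle libraries and at 10169.7, 10073 and 9358 TPM in the PDBAG1 libraries. The groups overlapped, and the lowest of all 6 values was in PDBAG1 replicate 3. The mean was 10114 ± 378 TPM for vehicle and 9867 ± 444 TPM for PDBAG1 (SD, n = 3 each), the rank being 3 and 4 among all genes. The log2 fold change was -0.04 with a 95% interval of -0.12 to 0.05 (limma, adjusted p = 0.491), which leaves out any change of 1.5-fold.

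MT1E, an isoform of the MT1 group, was the next most abundant, at 1204, 1461 and 1320.0 TPM with vehicle and 1262, 1271 and 1126.8 TPM with PDBAG1. The groups overlapped, with the highest value in vehicle replicate 2. The log2 fold change was -0.12 (95% interval -0.25 to 0.01, limma adjusted p = 0.139). Without vehicle replicate 1, the vehicle library with the lowest value, it was -0.19 with an adjusted p of 0.018.

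MT1X, a further MT1 isoform, was at 514, 512 and 549.7 TPM with vehicle and at 1102, 1009 and 889 TPM with PDBAG1. Every PDBAG1 library lay above every vehicle library, and the spread was wider with PDBAG1. The vehicle mean was 525 ± 21.4 TPM and the PDBAG1 mean 1000.3 ± 107 TPM (SD, n = 3 each), a ratio of 1.91. The log2 fold change was 0.92 with an SE of 0.06 (95% interval 0.79 to 1.05, limma adjusted p = 9.0e-08), the rise ranking 100 of the 12582 genes tested. Over all genes tested, 47.4% had groups that did not overlap.

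MT1G was far lower, at 0.75, 1.47 and 1.77 TPM with vehicle and 2.25, 3.27 and 5.24 TPM with PDBAG1. The groups did not overlap, and the highest value was in PDBAG1 replicate 3. MT1G reached 1 TPM in 2 of the 3 vehicle libraries and in all 3 PDBAG1 libraries. It therefore met the filter of 1 TPM in 3 libraries only with PDBAG1 libraries, where it was higher, counted. The vehicle mean was 1.33 ± 0.524 TPM and the PDBAG1 mean 3.59 ± 1.52 TPM (SD, n = 3 each). On the scale of TPM + 1, which understates changes at such levels, the log2 fold change was 0.95 with an SE of 0.21 (limma adjusted p = 0.0029).

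MT1F stood at 5.62, 5.75 and 4.63 TPM with vehicle and at 11.8, 7.51 and 5.48 TPM with PDBAG1. The groups overlapped, and PDBAG1 replicate 1 stood apart from the rest. The log2 fold change was 0.50 with an SE of 0.18 (limma adjusted p = 0.043). The call was lost in 9 of 13 alternative settings, and without PDBAG1 replicate 1 the log2 fold change was 0.23 (adjusted p = 0.154).

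MT1M was the lowest member, at 0.30, 1.22 and 0.29 TPM with vehicle and 0.66, 0.62 and 2.77 TPM with PDBAG1. It reached 1 TPM in 2 libraries, 1 of each group, which overlapped, and it did not enter the test. In the fit with no filter its log2 fold change was 0.48 (limma adjusted p = 0.375).

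**Figure D3:**
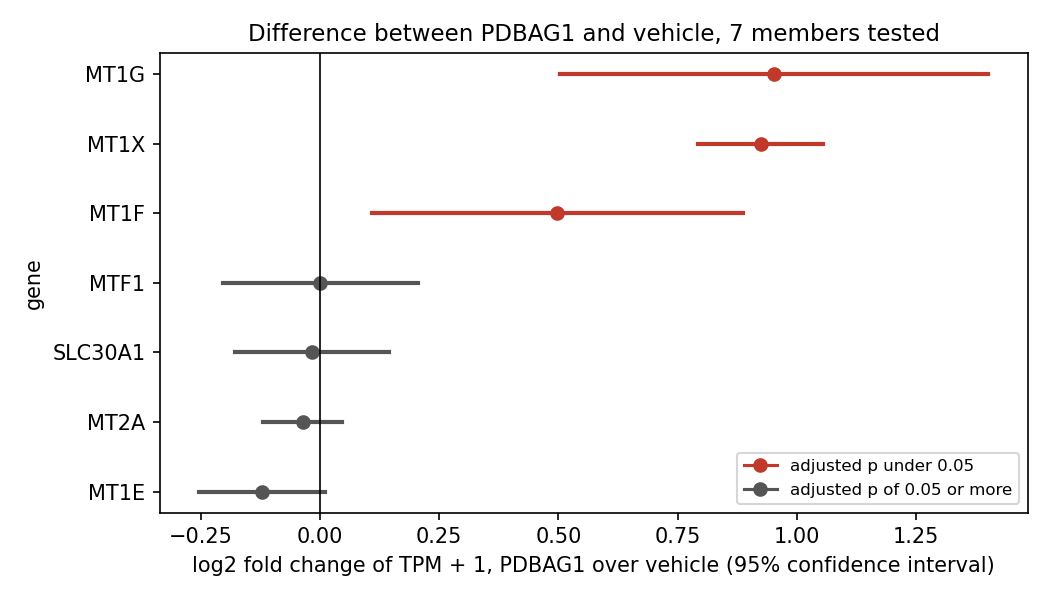
Log2 fold change of TPM + 1, PDBAG1 over vehicle, for the 7 members tested, with 95% intervals from limma. The intervals of MT1X (0.79 to 1.05), MT1G (0.50 to 1.40) and MT1F (0.11 to 0.89) lie above 0, and those of MT2A, MT1E, MTF1 and SLC30A1 span it.

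The summed level of the 6 metallothioneins, most of which was MT2A, overlapped between the treatments. The sum was 11403, 12293 and 12229 TPM with vehicle and 12548, 12365 and 11387 TPM with PDBAG1, the lowest value being in PDBAG1 replicate 3. It amounted to 1.20% of the library with vehicle and 1.21% with PDBAG1, a difference of 0.01 on the log2 scale (exact two-sided permutation test, p = 0.6). With 3 libraries against 3 the smallest p that an exact permutation test can give is 0.1, so no sum or share could reach 0.05. Without MT2A, the vehicle sum was 1861 ± 129 TPM and the PDBAG1 sum 2233 ± 182 TPM (SD, n = 3 each), with no overlap (exact permutation test, p = 0.1).

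The shares of MT1X, MT2A, MT1E and MT1G in the sum did not overlap between the treatments. They are parts of the same sum, so a higher MT1X share leaves less for the rest. MT1X gave 4.50%, 4.16% and 4.49% of the sum with vehicle and 8.78%, 8.16% and 7.81% with PDBAG1, a difference of 3.87 percentage points (exact permutation test, p = 0.1). MT2A gave 84.5 ± 0.524% with vehicle and 81.6 ± 0.573% with PDBAG1, and MT1E gave 11.1 ± 0.709% and 10.1 ± 0.193% (SD, n = 3 each). The exact permutation test gave p = 0.1 for each. MT1X was at 0.398 of the MT1E level with vehicle and at 0.819 with PDBAG1, and MT2A exceeded MT1X by 19.3 times with vehicle and by 9.91 times with PDBAG1. The log2 ratio of MT1E to MT2A, at -2.93 and -3.02, overlapped between treatments (exact permutation test, p = 0.2).

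**Figure D4:**
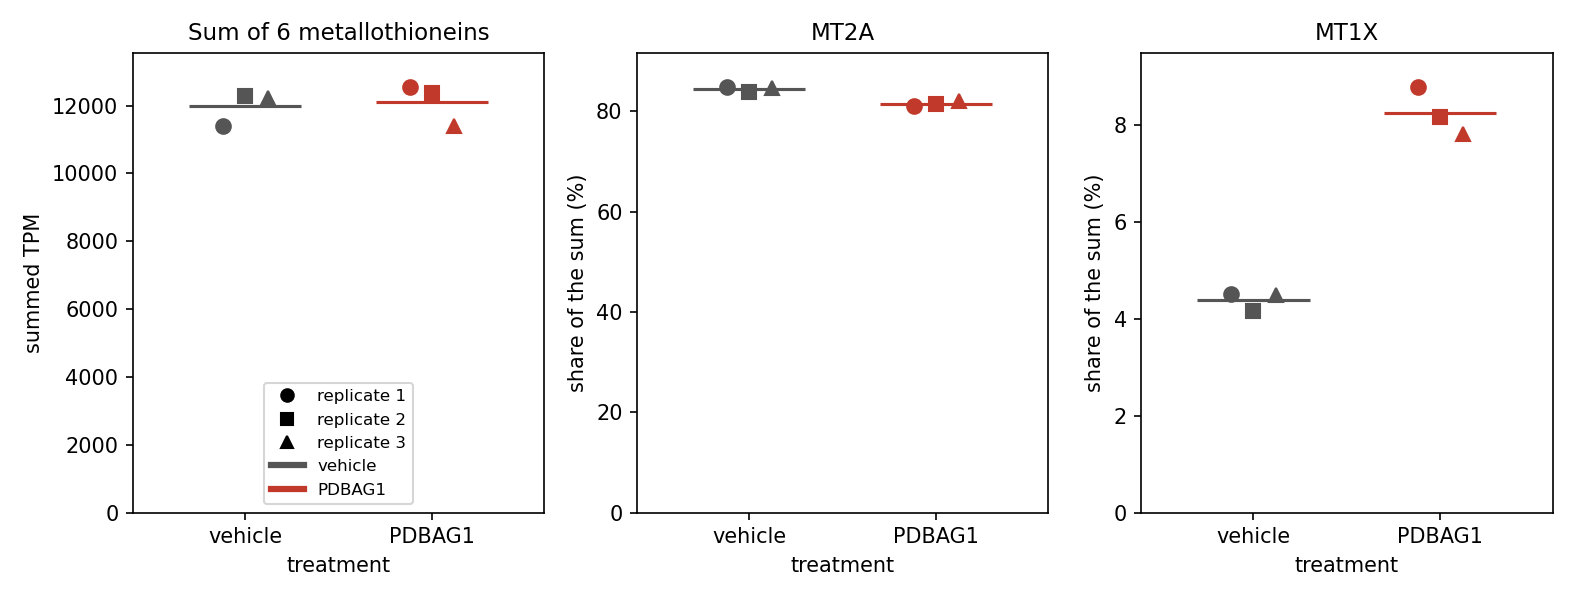
Summed TPM of the 6 metallothioneins and the shares of MT2A and MT1X in that sum, in percent, for the 3 vehicle and 3 PDBAG1 libraries, with group means as lines. The sums overlap between treatments, the MT2A share is 84.5% against 81.6%, and the MT1X share is 4.39% against 8.25%.

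The metallothioneins are a family of similar genes, and reads from stretches they share could have been divided among them in the counting. Of the 50-base windows of the reference transcript of MT1X, 51.0% also occurred in another GENCODE gene, the largest share of any member. Most of these, 117 windows, were shared with a GENCODE gene that has no symbol. In another gene of the files, mostly MT1G, 16.6% occurred. For MT1G, 19.9% of windows were shared, 47 of them with MT1X and 16 with MT2A, both of which were far more abundant than MT1G. The shares were 11.1% for MT2A, 10.3% for MT1E, 14.6% for MT1M, 6.12% for MT1F and 0.647% for MTF1, and 0 for SLC30A1. These percentages set no bound on the error, since the level of the other gene matters too, and the values of MT1G, the difference between treatments included, are uncertain for that reason. The part of shared reads in the differences was not tested. The sum over all 11 metallothionein genes in the files was 11988 ± 496 TPM in the vehicle libraries and 12113 ± 625 TPM in the PDBAG1 libraries (SD, n = 3 each).

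Neither the zinc sensor nor the exporter differed beyond the spread between libraries. MTF1 was at 6.05, 5.91 and 5.57 TPM with vehicle and 6.64, 5.23 and 5.74 TPM with PDBAG1, with both the highest and the lowest value in the PDBAG1 group. Its log2 fold change was 0.001 (95% interval -0.20 to 0.21, limma adjusted p = 0.995). SLC30A1 was at 17.6, 17.5 and 15.8 TPM with vehicle and 16.1, 15.9 and 18.3 TPM with PDBAG1, and the groups overlapped. Its log2 fold change was -0.02 (95% interval -0.18 to 0.14, limma adjusted p = 0.884). Both intervals leave out a change of 1.5-fold, and for both genes the sign of the small difference varied between the alternative settings.

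Of 9 other metallothionein genes looked up, 5 were in the tables and only MT1A was tested. MT1A had a vehicle mean of 12.1 ± 0.891 TPM and a PDBAG1 mean of 12.6 ± 3.58 TPM (SD, n = 3 each). Its log2 fold change was 0.02 (limma adjusted p = 0.921). MT1B, MT1H, MT1HL1 and the brain isoform MT3 stayed below 1 TPM in every library. MT1L, MT1JP, MT1DP and MT4 were not analysed here.

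The counts for the further lists can be read against the 37.6% of all genes tested that were called, 21.7% higher and 15.9% lower, and against the median of 0.03. The lists were chosen with earlier results of these data known, so these counts are a description. Of the other SLC30A exporters and TMEM163, 7 of 10 were tested and 0 passed (limma, adjusted p), with log2 fold changes from -0.11 to 0.14 and a median of -0.09. Of the SLC39A importers, which bring zinc into the cytosol, 11 of 14 were tested, 1 was higher and 1 lower, and the median was -0.01. SLC39A3, which encodes the importer ZIP3, fell from 60.9 to 48.0 TPM (log2 fold change -0.34, adjusted p = 1.9e-04). SLC39A13 rose from 72.2 to 78.7 TPM (log2 fold change 0.12, adjusted p = 0.048), a call that was lost in 8 of 13 alternative settings.

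All 14 copper handling genes were tested, of which 4 were higher and 6 lower, with a median of -0.10. None passed 1.5-fold, a limit that 3.34% of all genes tested passed. The copper pumps ATP7A and ATP7B each had a log2 fold change of 0.38, from 2.75 to 3.88 TPM (adjusted p = 0.0090) and from 0.983 to 1.58 TPM (adjusted p = 0.017). ATP7B, at 1.05, 1.05 and 0.85 TPM with vehicle, met the filter only with PDBAG1 libraries counted. Its call was lost in 2 of the 12 alternative settings that tested it. Of 12 genes known to answer heavy metals and oxidants, 1 was higher and 3 lower (limma), with a median of -0.04. HMOX1, encoding heme oxygenase 1, rose from 26.2 ± 2.15 to 36.5 ± 1.71 TPM (adjusted p = 1.3e-04), and GCLM, a subunit of the first enzyme of glutathione synthesis, fell from 36.3 ± 2.65 to 28.3 ± 1.90 TPM (SD, n = 3 each; limma adjusted p = 0.0013).

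A list of 12 genes held NR3C1, which encodes the glucocorticoid receptor, and genes known as targets of the receptor. Like the other lists, it was chosen with earlier results of these data known, so its counts are a description. NR3C1 did not pass the test (44.4 to 48.8 TPM, log2 fold change 0.13, limma adjusted p = 0.122). Of the 12, 11 were tested, NR3C1 included, 8 were higher and 1 was lower, with a median of 0.34. TFCP2L1, below 1 TPM in every vehicle library, met the filter only with PDBAG1 libraries counted and did not pass (limma adjusted p = 0.113). Over all genes tested, 21.7% were higher and 15.9% lower, with a median of 0.03. Those past 1.5-fold were ANGPTL4, an inhibitor of lipoprotein lipase that is also a known hypoxia target (3.29 to 10.9 TPM, log2 fold change 1.48), ERRFI1, a feedback inhibitor of EGFR (224 to 527 TPM, 1.23), and the transcription regulators KLF9 (3.08 to 5.88 TPM, 0.75) and TSC22D3 (11.2 to 19.3 TPM, 0.74). FKBP5, a classical target of the receptor named after its values were seen, fell from 31.5 to 24.4 TPM (log2 fold change -0.36, limma adjusted p = 3.7e-04). Beside these lists, MT1X (0.92) and MT1G (0.95) had larger log2 fold changes than every tested gene of the zinc, copper and stress lists, and smaller ones than ANGPTL4 and ERRFI1. The MT1G value is uncertain because of shared sequence, and MT1G met the filter only with PDBAG1 libraries counted.

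**Figure D5:**
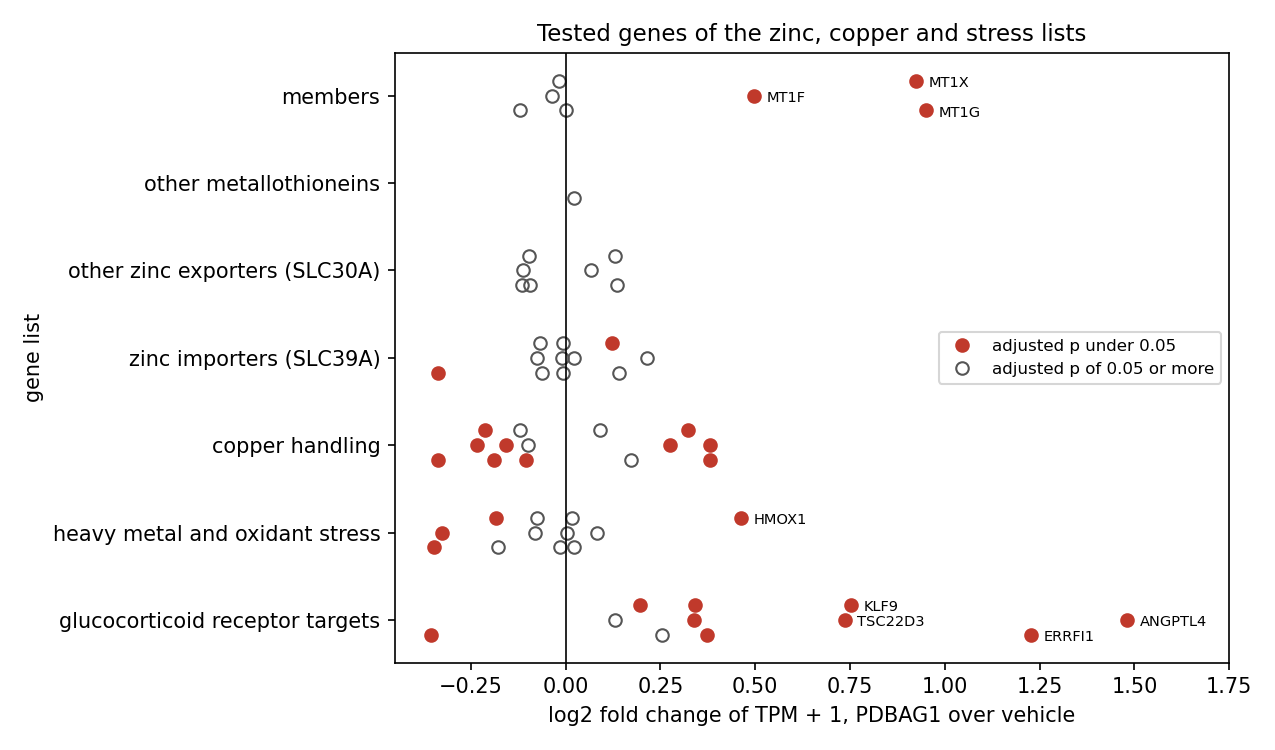
Log2 fold change of TPM + 1, PDBAG1 over vehicle, for each tested gene of the 7 lists, filled where the limma adjusted p was under 0.05. The zinc transporter points lie between -0.34 and 0.21, whereas MT1X lies at 0.92, MT1G at 0.95 and ANGPTL4 at 1.48.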

How the data were processed

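mRNA libraries of MDA-MB-231 cells (3 vehicle, 3 PDBAG1) were sequenced, and the authors deposited 1 table of TPM values per library. The methods describe alignment with HISAT2 to GRCh38.p13 of reads from a BGISEQ-500 and normalisation to FPKM, whereas the deposited tables hold TPM and the labels name Illumina library protocols. The submitters' processing notes name HISAT2 2.0.4, Bowtie2 2.2.5, RSEM 1.2.12 and GRCh38.p12. The annotation release, the use of strand and the step to TPM are not given in the sources used here. TPM keep no depth, so depth is unknown and count tests were not run.

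Groups came from the labels. Genes with at least 1 TPM in 3 or more libraries (12582) were fitted as log2(TPM + 1) with limma 3.58.1 (R 4.3.3; trend of variance, treatment only, Benjamini-Hochberg over all genes tested), after a check on simulated data. The study's limits, 1.5-fold and an adjusted p of 0.05, set the calls over all genes, and members were read at the adjusted p. Sums and shares were compared by exact two-sided permutation tests (scipy 1.17.1). Of the Ensembl identifiers, 17212 of 17631 matched GENCODE 44, which gave positions and shared 50-base windows. All members are named. In the further lists, genes past 1.5-fold are named, otherwise the 2 with the largest change among those called. The members and lists were chosen with earlier results of these data known. Alternatives covered the filter, pseudocount, scaling, variance trend, replicate block, fold limit and each library left out.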

Additional observations from a re-analysis of the deposited data

How the results depend on the processing

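MT1X kept its call in 13 of 13 alternative settings (log2 fold change 0.85 to 1.01) and MT1G in the 12 that tested it (0.70 to 1.36). The setting that asked for 1 TPM in every library left MT1G out. The fits with 1 library left out kept the filter set on all libraries, which MT1G met only with PDBAG1 libraries counted. They therefore did not test whether MT1G would pass that filter. With no expression filter the limma adjusted p of MT1G was 0.028. MT2A (-0.07 to 0.002), MTF1 (-0.10 to 0.07) and SLC30A1 (-0.09 to 0.02) were not called in any of 13. MT1F ranged from 0.23 to 0.73 (adjusted p from 0.0013 to 0.173) and lost its call in 9. The log2 difference of the summed metallothioneins lay between -0.02 and 0.06, and the MT1X share difference between 3.60 and 4.09 percentage points.

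Over all genes, 420 were called, 4736 with no fold limit, 80 with a fold limit of 2, and 423 to 483 with 1 library left out. A pseudocount of 0.1 gave 630. Quantile normalization lowered the higher share of 1.5-fold calls from 85.7% to 75.3%. The SLC39A calls went from 2 to 1 under median-of-ratios scaling, without the variance trend and under the replicate block, and to 1 to 3 with 1 library left out. Other SLC30A calls went from 0 to 2 under median-of-ratios scaling and quantile normalization, and copper calls from 10 to between 6 and 9 with 1 library left out. The cause was not tested. Libraries of the same replicate number did not vary together over all genes (correlations of deviations -0.21, 0.01 and -0.08). This does not settle whether they were set up as pairs. With the replicate block, 427 genes and 3 members were called, and the limma adjusted p was 2.2e-05 for MT1G and 0.0072 for MT1F. TPM keep no depth, so the precision of the low members MT1G and MT1M cannot be judged from counts.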

Other observations

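The genes whose log2(TPM + 1) followed the summed metallothionein level most closely over the 6 libraries were APOBEC3F (Pearson r = 0.978), IL12RB1 (0.964), ELOB (0.961), SELENOM (0.954) and LGALS1 (0.941). None of these 5 was called between treatments. Those closest to MT1X, a search chosen after its values were seen, were MAN2B1 (r = 0.998), IL6R (0.997), TOM1 (0.997), RAC3 (0.996) and WBP2 (0.995), all called higher with PDBAG1. The 6 points fall into 2 treatments, so these values are a description.

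Within 500 kb on either side of the chromosome 16 cluster, a window chosen after the data were seen, 12 other genes were in the tables and 10 were tested (limma, adjusted p under 0.05). Of these, 3 were higher with PDBAG1, HERPUD1 (log2 fold change 0.37), BBS2 (0.23) and CPNE2 (0.21), and 2 were lower, OGFOD1 (-0.25) and NUDT21 (-0.19), beside 21.7% higher and 15.9% lower over all genes tested. The median over the 10 was 0.06. Inside the cluster, the tested genes were at 0.95 (MT1G), 0.92 (MT1X), 0.50 (MT1F), 0.02 (MT1A), -0.04 (MT2A) and -0.12 (MT1E).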
